A study of Homo sapiens with 8 samples.

Results

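Intervals at the large genes GAS7, CHST11, ZMIZ1, IQSEC1 and SEPTIN9 held 66 of the 15412 binding sites of the fusion protein PML::RARA listed for U937-PR9 cells. The genes were chosen by their number of peaks in this same list, and their members are all the listed peaks that overlap 5 fixed intervals of the genome build hg19. The intervals take in the whole gene with a few kb on either side (295001 bp for GAS7, 315001 bp for CHST11, 255001 bp for ZMIZ1 and 230001 bp for SEPTIN9), except that of IQSEC1 (190001 bp), which takes in the canonical transcript only. By interval there were 15 peaks for GAS7, 15 for CHST11, 14 for ZMIZ1, 10 for IQSEC1 and 12 for SEPTIN9. Since these numbers chose the genes, they and all values below are descriptions without a test.

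The cells of the line U937-PR9 are monocytic and carry a transgene for PML::RARA whose promoter responds to zinc. Cut&Run, in which an antibody directs a nuclease to a bound protein and the released DNA fragments are sequenced, was carried out with an anti-PML-RARA and an anti-RARA antibody, each in cells given 100 μM ZnSO4 for 5 h (induced) and in cells given water for 5 h (uninduced), with 2 replicates in each of the 4 groups. All 8 libraries came from the same line, so the uninduced cells carry the transgene too, and zinc and the fusion protein cannot be told apart in the induced ones. The values are from 1 list, made from both induced anti-PML-RARA libraries, and hold 1 set of numbers, so that replicates cannot be compared, and library depth is unknown.

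PML::RARA is the fusion of the retinoic acid receptor alpha with the PML protein that is found in acute promyelocytic leukaemia. RARA, a nuclear receptor, recognises pairs of the half-site AGGTCA. Among the main transcription factors of myeloid cells are PU.1, of the ETS family, RUNX1 and the C/EBP factors. The 5 genes code for unrelated proteins. GAS7 encodes a growth-arrest-specific F-BAR protein that binds membranes and actin, CHST11 a Golgi sulfotransferase of chondroitin, ZMIZ1 a PIAS-like transcriptional coregulator, IQSEC1 an exchange factor of ARF GTPases and SEPTIN9 a filament-forming GTPase of the cytoskeleton. GAS7 and SEPTIN9 are also known as fusion partners of KMT2A in leukaemia.

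The sequences under the highest peak of each gene are shown first, with the second highest of GAS7, which had no gene label, and the peak of IQSEC1 that carried its gene's label, which differs from the others in base composition. Each is the 300 bp centred on the apex of the peak, the stretch of largest signal, read from the plus strand of hg19. Capitals mark 7 short motifs searched on both strands: the half-site AGGTCA, the ETS core GGAAGT, the RUNX word TGTGGT, the AP-1 word TGACTCA, the C/EBP word TTGCNNCAA, the E-box CACGTG and the GC box GGGCGG. A motif on the minus strand appears as its reverse complement, so that ACTTCC marks an ETS core and ACCACA a RUNX word.
GAS7, chr17:10018592-10018891, height 57: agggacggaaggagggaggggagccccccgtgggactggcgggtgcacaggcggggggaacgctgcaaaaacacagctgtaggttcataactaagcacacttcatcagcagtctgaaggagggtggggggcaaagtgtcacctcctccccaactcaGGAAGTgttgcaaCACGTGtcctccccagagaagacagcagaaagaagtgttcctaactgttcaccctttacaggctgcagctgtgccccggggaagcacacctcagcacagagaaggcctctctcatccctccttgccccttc
GAS7, chr17:9967038-9967337, height 56: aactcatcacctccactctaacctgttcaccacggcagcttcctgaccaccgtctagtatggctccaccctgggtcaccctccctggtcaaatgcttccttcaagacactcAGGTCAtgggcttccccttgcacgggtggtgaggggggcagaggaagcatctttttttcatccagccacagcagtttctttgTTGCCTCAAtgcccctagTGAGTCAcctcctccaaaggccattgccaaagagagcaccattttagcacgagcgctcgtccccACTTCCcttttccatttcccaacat
CHST11, chr12:105063823-105064122, height 43: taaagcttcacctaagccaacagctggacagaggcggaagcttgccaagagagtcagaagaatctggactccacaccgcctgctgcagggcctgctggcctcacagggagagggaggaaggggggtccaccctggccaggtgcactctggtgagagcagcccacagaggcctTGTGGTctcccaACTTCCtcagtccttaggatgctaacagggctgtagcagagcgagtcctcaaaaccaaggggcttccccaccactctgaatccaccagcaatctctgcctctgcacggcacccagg
ZMIZ1, chr10:80897613-80897912, height 48: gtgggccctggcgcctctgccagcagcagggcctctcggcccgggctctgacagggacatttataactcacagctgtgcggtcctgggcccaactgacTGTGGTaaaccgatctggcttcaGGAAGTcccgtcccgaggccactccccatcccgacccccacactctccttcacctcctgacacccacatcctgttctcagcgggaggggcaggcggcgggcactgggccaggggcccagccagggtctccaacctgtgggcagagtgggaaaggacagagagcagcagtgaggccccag
IQSEC1, chr3:13053886-13054185, height 40: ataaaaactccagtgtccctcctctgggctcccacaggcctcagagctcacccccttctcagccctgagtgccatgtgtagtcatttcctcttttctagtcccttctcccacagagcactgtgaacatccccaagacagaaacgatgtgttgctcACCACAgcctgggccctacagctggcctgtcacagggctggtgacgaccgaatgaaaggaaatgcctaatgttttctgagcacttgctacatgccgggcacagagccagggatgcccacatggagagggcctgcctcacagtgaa
IQSEC1, chr3:13009217-13009516, height 23: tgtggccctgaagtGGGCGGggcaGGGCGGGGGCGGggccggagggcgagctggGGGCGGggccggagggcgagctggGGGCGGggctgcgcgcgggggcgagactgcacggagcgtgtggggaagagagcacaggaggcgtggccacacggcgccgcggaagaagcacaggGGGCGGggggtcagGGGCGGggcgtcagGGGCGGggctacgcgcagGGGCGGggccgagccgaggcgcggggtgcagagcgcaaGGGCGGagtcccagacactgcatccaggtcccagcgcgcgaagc
SEPTIN9, chr17:75461735-75462034, height 47: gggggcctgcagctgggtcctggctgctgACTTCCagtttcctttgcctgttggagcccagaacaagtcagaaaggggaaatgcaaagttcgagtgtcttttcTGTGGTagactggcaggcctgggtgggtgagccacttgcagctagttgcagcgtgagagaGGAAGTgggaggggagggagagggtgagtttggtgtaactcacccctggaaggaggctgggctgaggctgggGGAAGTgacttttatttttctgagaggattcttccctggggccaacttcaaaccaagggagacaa

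All 7 windows held at least 1 of the words. An ETS core lay in those of GAS7, CHST11, ZMIZ1 and SEPTIN9, and a RUNX word lay with it in CHST11, ZMIZ1 and SEPTIN9. In the CHST11 window 6 bases separated the 2 words, and in the ZMIZ1 window 17 bases did. The half-site was found in 1 of the 7, the unlabelled window of GAS7, which also held the only C/EBP word of the 66 windows at the apex. The labelled IQSEC1 window stood apart with 10 GC boxes, 36 CpG dinucleotides and a GC content of 78.7%, against 2 to 11 CpG and 54.0 to 66.0% GC in the other 6.

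**Figure D1:**
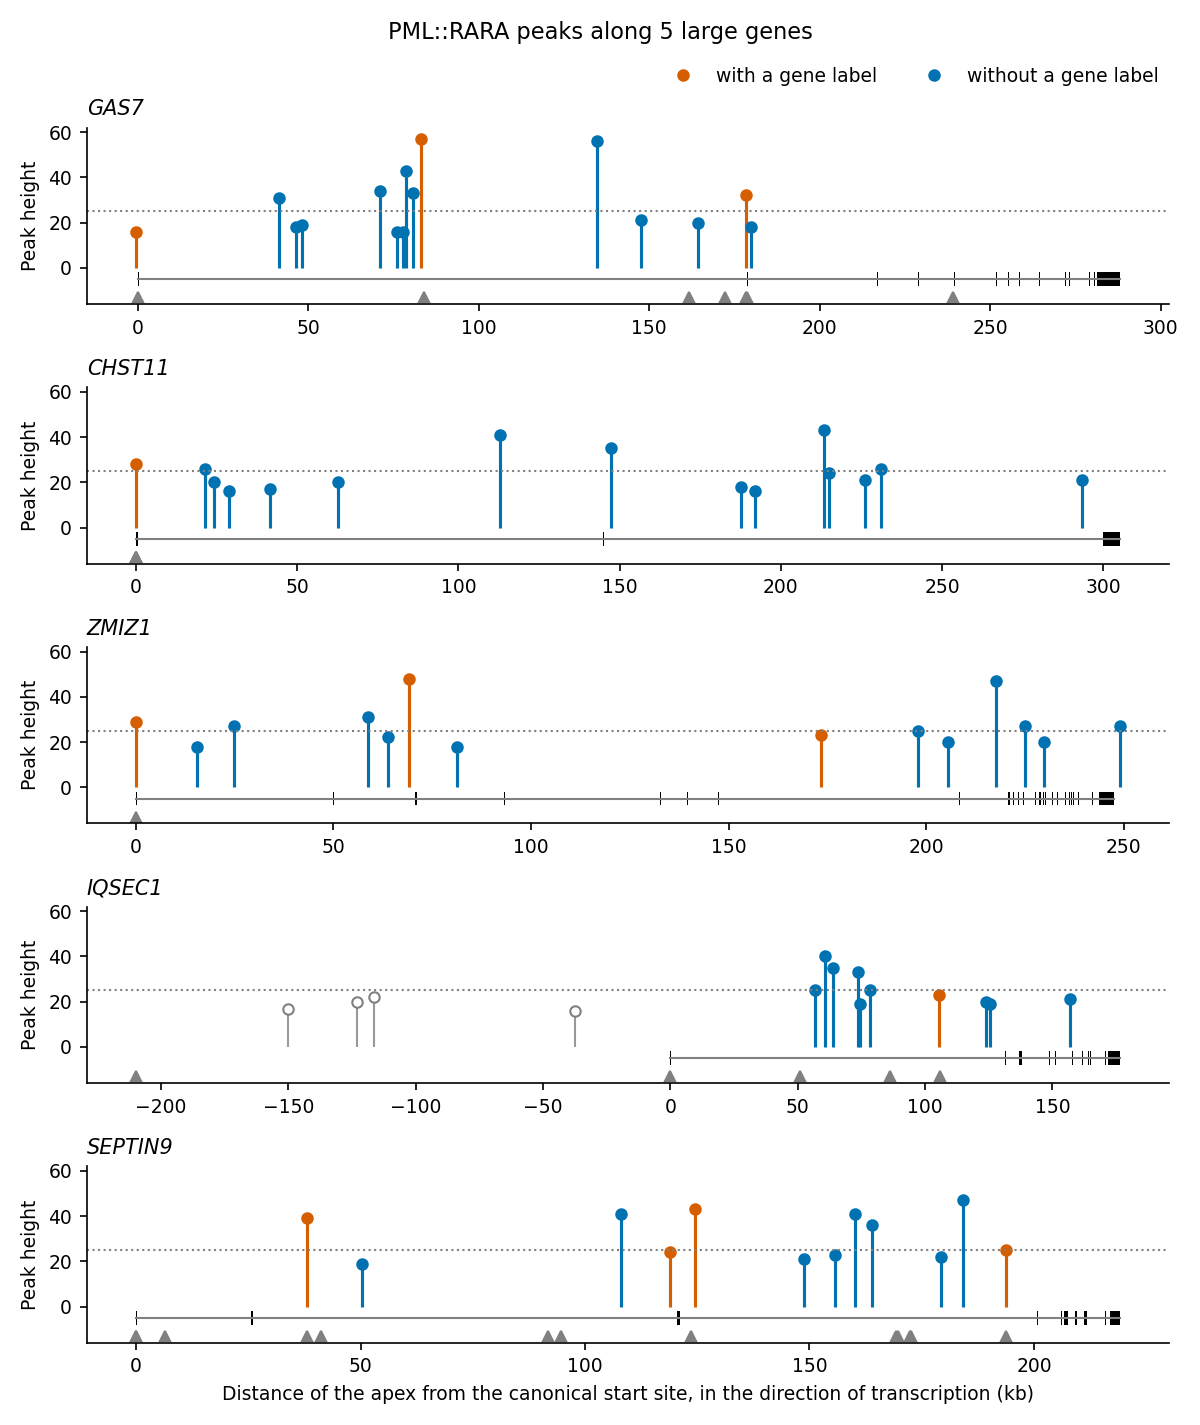
Peak height (largest signal within a peak) against the distance of the apex from the start of the canonical transcript, in kb in the direction of transcription, for the 66 peaks, with labelled peaks in orange and unlabelled ones in blue. Black boxes are exons, the dotted line is the median height of the list (25) and open circles are 4 peaks of IQSEC1 outside its interval. Grey triangles are a part of the annotated start sites of protein-coding transcripts. Among those not drawn are the starts 601 bp from the highest peak of SEPTIN9 and 770 bp from the first peak of IQSEC1 within its interval. The 3′ part of GAS7 and the start of SEPTIN9 are without peaks, and IQSEC1 has none near its canonical start.

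In GAS7, which lies on the minus strand of chromosome 17 from 9813923 to 10101923 (ENSG00000007237), the peaks filled the 5′ part of the gene and left its 3′ end empty. The apexes reached from 488 bp upstream of the canonical start to 179973 bp downstream of it, and the last 107867 bp, 37.5% of the gene, held no peak. Of the 15 apexes, 13 lay in intron 1, which makes up 61.9% of the transcript, and 1 in intron 2. The heights along the direction of transcription were 16, 31, 18, 19, 34, 16, 16, 43, 33, 57, 56, 21, 20, 32 and 18. The highest (57) and second highest (56) were 51554 bp apart, the widest distance between neighbours in the gene, and were above 98.2% and 97.9% of the list in height. The peak of height 57 was also the widest of the gene, at 1673 bp, with the largest total signal of all 66 peaks (26880). The lowest value, 16, was found 3 times, once at the canonical start itself.

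A run of 6 GAS7 peaks, with heights of 34, 16, 16, 43, 33 and 57 in the direction of transcription, reached from 10017732 to 10031685. The apexes of this run spanned 11973 bp, and its closest pair was 901 bp apart. Of the 3 labelled peaks of GAS7, 1 had its apex 33 bp upstream of an annotated start (ENST00000579158) and a height of 32, 1 lay 871 bp upstream of another start (ENST00000323816) with a height of 57, and 1 lay 488 bp upstream of the canonical start (ENST00000432992) with a height of 16. The labelled peak at the canonical start was therefore the lowest of the 3, and the highest lay at a start inside intron 1.

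In CHST11, on the plus strand of chromosome 12 from 104849073 to 105155792 (ENSG00000171310), the peaks were spread over almost the whole gene. The canonical transcript has 2 introns, and intron 1 held 6 apexes and intron 2 held 8. Neighbouring apexes were 1676 to 62278 bp apart, and the median distance of 16826.5 bp was the widest median of the 5 genes. The heights, in the direction of transcription, were 28, 26, 20, 16, 17, 20, 41, 35, 18, 16, 43, 24, 21, 26 and 21. The 3 highest, 41, 35 and 43, lay in the middle and 3′ part of the gene, between 112982 and 213246 bp from the start. The only labelled peak lay 24 bp upstream of the canonical start. It was the widest of the gene, at 2068 bp, but of moderate height (28). The narrowest of all 66 peaks, at 264 bp, was the last one of CHST11, 293329 bp downstream of the start.

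In ZMIZ1, on the plus strand of chromosome 10 from 80828723 to 81076276 (ENSG00000108175), 7 peaks lay in the first 81285 bp and 7 from 173281 bp on. The gap of 91996 bp between these groups was the widest between neighbours within any of the 5 intervals. The heights, in the direction of transcription, were 29, 18, 27, 31, 22, 48, 18, 23, 25, 20, 47, 27, 20 and 27. The highest, 48 in intron 2 and 47 in intron 8, lay 1 in each group. The closest neighbours were 4948 bp apart, and the widest peak was 1563 bp. Introns 1, 2, 3 and 7 held 2, 3, 1 and 3 apexes, introns 8, 12 and 15 held 1 each, and 1 peak lay upstream and 1 downstream of the gene.

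The gene labels of ZMIZ1 lay further from its annotated starts than those of the other genes. The peak at the canonical start, with its apex 18 bp upstream, carried the symbol of ZMIZ1-AS1, a gene antisense to ZMIZ1. The 2 peaks with the symbol ZMIZ1 lay 69039 and 1422 bp from the nearest annotated start of ZMIZ1. The first of them was the highest peak of the gene (48), whose sequence is printed above. The labels come from another annotation, the UCSC known genes, which was not analysed here.

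In IQSEC1, on the minus strand of chromosome 3 from 12938542 to 13324781 (ENSG00000144711), no peak lay at the canonical start, and the nearest apex within the interval was 56959 bp downstream of it. The nearest of the whole list was 37312 bp upstream, beyond the interval. Intron 1 of the canonical transcript, 74.3% of its length, held 9 of the 10 apexes and intron 6 held 1. The heights, in the direction of transcription, were 25, 40, 35, 33, 19, 25, 23, 20, 19 and 21, so that the 3 highest lay next to each other. The median distance between neighbours was 3935 bp, the smallest of the 5 intervals, but it was 9835 bp with neighbours under 1 kb apart merged, above that of GAS7 (8895.5 bp) and SEPTIN9 (9414 bp). The closest pair of all, at 744 bp, was here. The widest peak, at 1683 bp, was the first in the direction of transcription. The labelled peak lay 198 bp from the start of an inner transcript (ENST00000273221) and had a height of 23.

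The interval of IQSEC1 ends before the gene does. The longest annotated transcripts begin further upstream, and 4 more peaks lay in that part, between 13152158 and 13265358. These had heights of 16, 22, 20 and 17, none carried a label, and 2 of the 4 (16 and 17) were below the lowest within the interval, 19. Counted over the whole gene, IQSEC1 had 14 apexes. Their median distance was 9835 bp and the widest 94271 bp, a spacing chosen after the values were seen.

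In SEPTIN9, on the plus strand of chromosome 17 from 75276651 to 75496678 (ENSG00000184640), the peaks were the highest and widest of the 5 genes by their medians (30.5 and 1160 bp). The first apex within the gene lay 37985 bp downstream of the canonical start, and the nearest upstream, outside the interval, 14493 bp from it. Intron 1, 11.7% of the canonical transcript, held 0 of the 12 apexes, intron 2 (43.3%) held 4 and intron 3 (36.3%) held 8. The heights, in the direction of transcription, were 39, 19, 41, 24, 43, 21, 23, 41, 36, 22, 47 and 25. Heights of 36 or more and of 25 or less were the only ones present, with 6 peaks in each. The widest of all 66 peaks, at 2640 bp, was the first one of SEPTIN9, and the closest neighbours were 3911 bp apart. Labels were the most frequent here, in 4 peaks, all at starts of inner transcripts, 34, 62, 936 and 27 bp from them, with heights of 39, 24, 43 and 25. The highest peak, at 47, had no label, although its apex lay 601 bp from an annotated start.

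**Figure D2:**
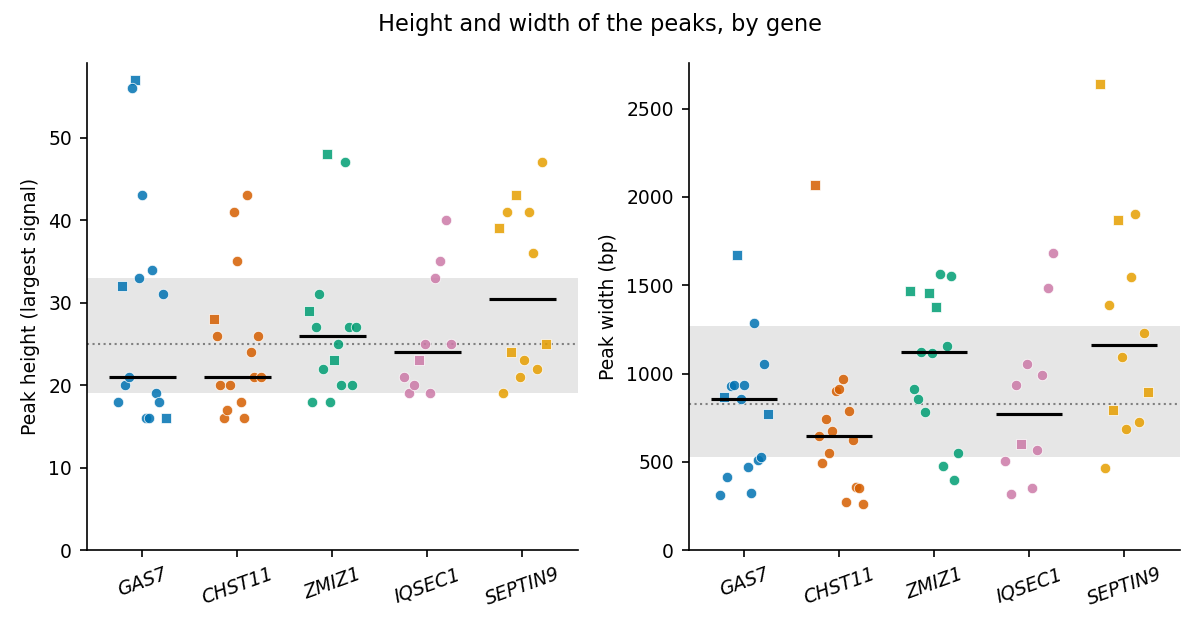
Height (largest signal) and width (bp) of the 66 peaks by gene, with squares for labelled and circles for unlabelled peaks and a black bar for the median of each gene. The dotted line and grey band are the median and the quartiles of the whole list (25, 19 and 33 in height, 829.5, 530 and 1268 bp in width), and the widest peaks of GAS7, CHST11 and SEPTIN9 are labelled ones.

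Set beside the whole list, with labelled and unlabelled peaks together, the 66 peaks were of ordinary height and width. Their median height was 24.5 against 25 for the list, and their median width 862.5 bp against 829.5 bp. Among unlabelled peaks alone the members were wider, with a median of 787.5 bp against 634 bp, and of like height (22.5 against 23). A height in the upper quartile of the list (33 or more) was found in 19 of the 66, or 28.8%, against 26.2% of all peaks, and a width in the upper quartile (1268 bp or more) in 15, or 22.7%, against 25.0%. SEPTIN9 held 6 of the 19 high peaks and GAS7 5, whereas CHST11 and IQSEC1 held 3 each and ZMIZ1 2. Of the 15 wide peaks, ZMIZ1 and SEPTIN9 held 5 each, GAS7 and IQSEC1 2 each and CHST11 1. Higher peaks were also wider, with a Spearman's rho across peaks of 0.64 over the 66 and 0.47 over the list. It was 0.82 in GAS7 and 0.38 in CHST11. Height and width are read from the same signal, and peaks are not replicates.

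Gene labels, which were given where the apex overlapped a promoter, were less frequent in these genes than in the list, which were chosen for peaks within the gene. Of the 66 peaks 12 carried one, or 18.2% (Wilson 95% interval 10.7 to 29.1%, for counting error only), against 46.5% of all peaks. The labelled peaks numbered 3 in GAS7, 1 in CHST11, 3 in ZMIZ1, 1 in IQSEC1 and 4 in SEPTIN9. Of the 12, 10 had their apex within 1 kb of an annotated start of the gene they lay in, and 3 of the 54 unlabelled ones did, 2 in IQSEC1 and 1 in SEPTIN9. The labelled peaks were the higher and wider ones, with medians of 28.5 and 1416.5 bp, against 22.5 and 787.5 bp for the unlabelled. The order was the same in the list, with medians of 26 and 1108 bp for labelled and 23 and 634 bp for unlabelled peaks. In IQSEC1 the labelled peak was lower and narrower (23 and 604 bp) than the unlabelled ones in the median (25 and 936 bp).

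By the annotation, 62 of the 66 apexes lay in an intron of the canonical transcript of their gene, 0 in one of its exons and 4 outside it. Intron 1 held 30 of the 62, or 48.4%, against 43.9% of the 5012 such apexes in the canonical introns of all protein-coding genes. This share was uneven among the members, from 13 of 14 in GAS7 and 9 of 10 in IQSEC1 to 0 of 12 in SEPTIN9. So was the length of intron 1, with 61.9% of the canonical transcript in GAS7, 74.3% in IQSEC1 and 11.7% in SEPTIN9.

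**Figure D3:**
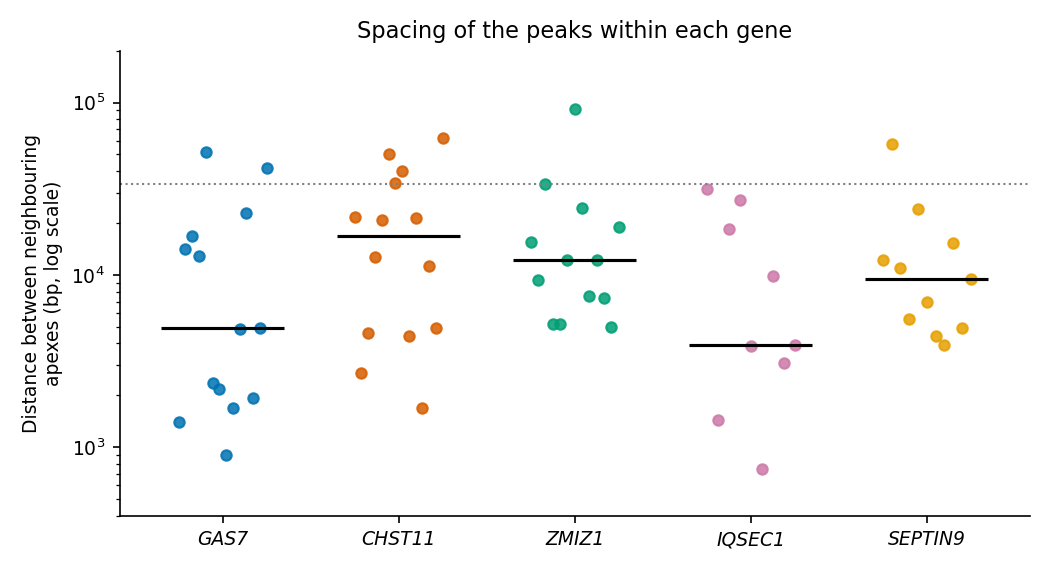
Distance between neighbouring apexes in bp (log scale) in each gene, with the median of each as a bar and the median of the whole list as a dotted line. The medians run from 3935 bp in IQSEC1 to 16826.5 bp in CHST11, below the 33899 bp of the list.

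The distance between neighbouring apexes had a median of 9835 bp over the 61 pairs of neighbours, against 33899 bp between neighbours over the list, a difference that the choice of genes with many peaks fixes. Of the 61 pairs, 22 were under 5 kb apart, or 36.1%, against 16.2% in the list. With this distance, which was set with the values known, 35 of the 66 peaks fell into 13 runs and 31 stood alone. GAS7 had 11 of its 15 peaks in 3 runs and IQSEC1 8 of its 10, whereas in ZMIZ1 12 of the 14 stood alone. The peaks covered 3.37% of the interval in CHST11, 4.02% in GAS7, 4.47% in IQSEC1, 5.8% in ZMIZ1 and 6.62% in SEPTIN9. CHST11 and GAS7, with the most peaks, had the lowest percentages, but also the longest intervals and the most interval bases per peak (21000 and 19667 bp). In bases covered IQSEC1 was lowest, with 8493 bp against 10615 bp in CHST11 and 11870 bp in GAS7.

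Outside the intervals the neighbourhood differed from gene to gene. The nearest listed peaks beyond the interval of GAS7 were 826392 and 495780 bp away, and those of CHST11 78814 and 341271 bp away. ZMIZ1 had a peak 980 bp beyond its interval, of height 23 and without a label, and SEPTIN9 had one 6572 bp before its interval, of height 20. These were the closest excluded by the rule.

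**Figure D4:**
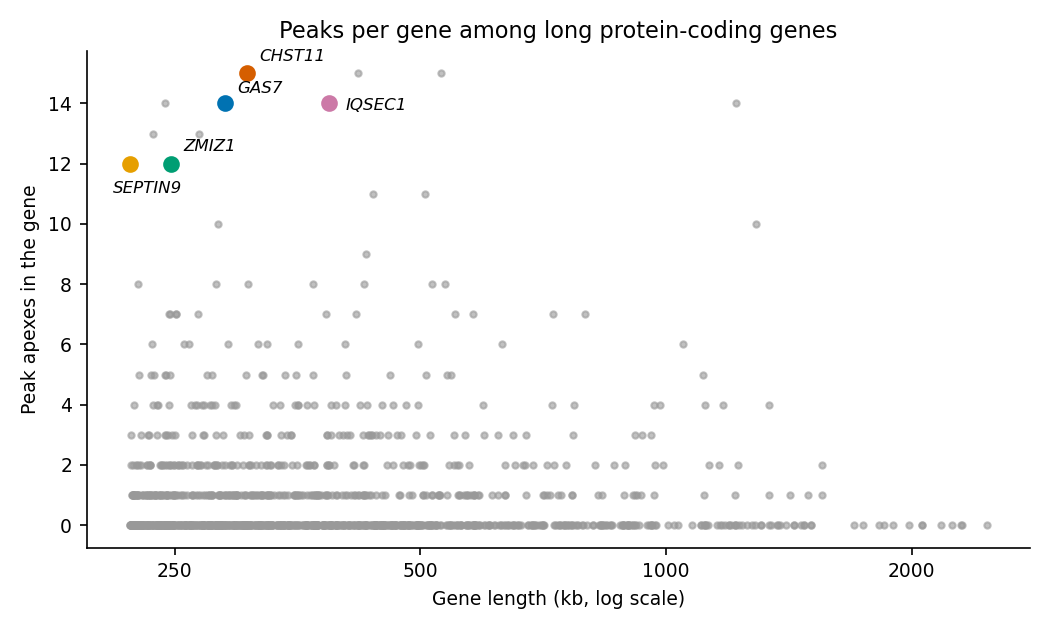
Number of peak apexes within each protein-coding gene of 220028 bp or longer against gene length in kb (log scale), with the 5 members named and the other genes in grey. Most of the 1308 genes have no apex, and the members have 12 to 15.

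Among the 1308 protein-coding genes at least as long as SEPTIN9, the shortest of the 5, 813 (62.2%) had no apex within them and 15 had 10 or more. CHST11, CDH23, which encodes a cadherin, and HIVEP3, a zinc finger factor, held the most, with 15 each. GAS7 and IQSEC1 held 14 within the gene, as did RUNX1, the myeloid transcription factor, and SEPTIN9 and ZMIZ1 held 12. Per 100 kb of gene, ENSG00000283782, a gene with no symbol in the annotation, had 5.53 apexes, SEPTIN9 had 5.45, CHST11 4.89, GAS7 4.86 and ZMIZ1 4.85, and IQSEC1 had 3.62 over its whole length.

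**Figure D5:**
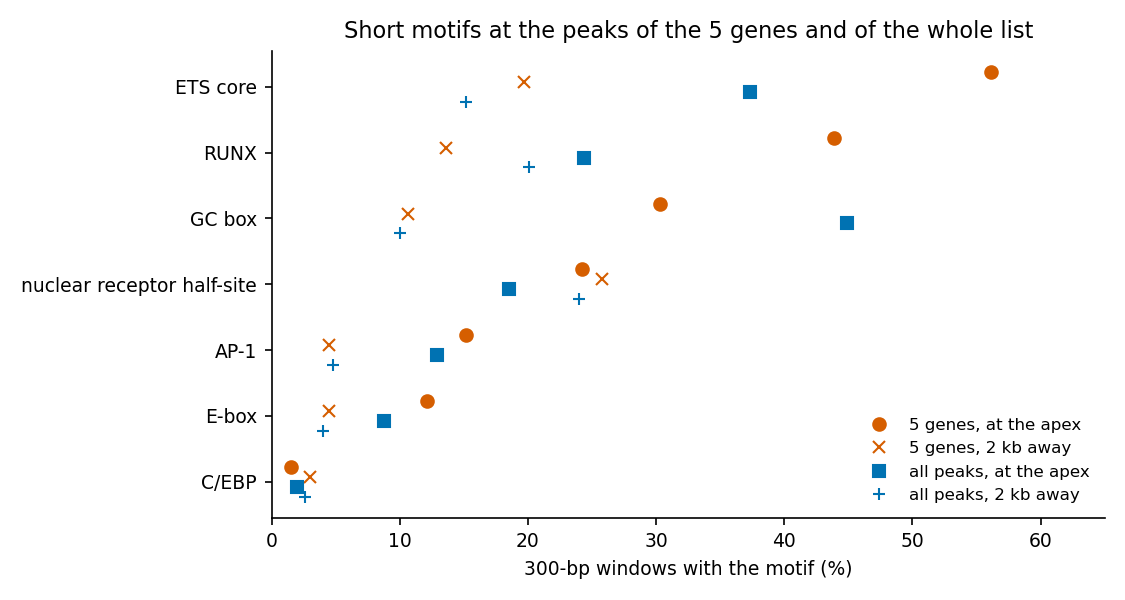
Percent of 300 bp windows that hold each of 7 motifs, at the apexes of the 66 members (circles), at all apexes of the list (squares), and 2 kb away from the members and from all peaks of the list (crosses). The ETS core is in 56.1% and the RUNX word in 43.9% of the member windows, the highest shares of the 4 sets for these motifs.

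Over the 66 apexes the ETS core was the most frequent of the 7 motifs, followed by the RUNX word. The words differ in length and the E-box reads the same on both strands, which this order does not allow for. An ETS core lay in 37 windows, or 56.1%, against 37.3% of all apex windows of the list, 42.1% of those without a label and 19.7% of windows 2 kb away from the members. A RUNX word lay in 29, or 43.9%, against 24.4, 35.1 and 13.6% in the same sets. Among the unlabelled members alone the shares were 59.3% for the ETS core and 42.6% for the RUNX word. Of the windows 2 kb away, 5 overlapped another listed peak. By gene, the ETS core was in 11 of 15 windows in GAS7, 9 of 15 in CHST11, 6 of 14 in ZMIZ1, 4 of 10 in IQSEC1 and 7 of 12 in SEPTIN9. The RUNX word was in 6, 6, 4, 5 and 8 of them. The order of the genes by ETS core depended on where the window was placed, since at the middle of the peak the core was in 10 of 15 windows in CHST11, 8 of 15 in GAS7 and 2 of 12 in SEPTIN9.

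Both words were present in 18 windows, or 27.3%, against 9.7% of the list, 14.3% of its unlabelled peaks and 3.0% of the windows 2 kb away. These windows numbered 5 in CHST11, 5 in SEPTIN9, 3 in GAS7, 3 in ZMIZ1 and 2 in IQSEC1. The nearest pair of both words in a window was 27.5 bases apart in the median and at most 154. In 9 of the 18 windows no more than 30 bases lay between them, and in 2 of these, in GAS7 and SEPTIN9, the words shared 1 base. Median height was 26 with an ETS core and 24 without, and 26 with a RUNX word and 22 without. In the whole list the median was 25 in all 4 cases.

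The half-site AGGTCA was in 16 windows, or 24.2%, which was close to the 25.8% found 2 kb away from the members and to the 23.4% of the unlabelled peaks of the list, and above the 18.5% of the whole list. Only 1 window, in GAS7, held more than 1. The AP-1 word was in 10 windows (15.2%), 5 of them in ZMIZ1 and 0 in IQSEC1, against 12.9% of the list and 20.0% of its unlabelled peaks. The E-box was in 8 (12.1%), 4 of them in GAS7, against 8.8 and 7.5%. The GC box was in 20 (30.3%), 7 in ZMIZ1 and 6 in IQSEC1, against 44.9% of the list and 22.3% of its unlabelled peaks. Among the 54 unlabelled members the GC box was in 25.9%, the half-site in 27.8%, the AP-1 word in 16.7% and the E-box in 11.1%. The C/EBP word was in 1 (1.5%) against 2.0 and 2.5%, and 3 windows held none of the 7. Of windows 2 kb away from the members, 4.5% held the AP-1 word, 4.5% the E-box, 10.6% the GC box and 3.0% the C/EBP word. A higher share at the apex than 2 kb away was thus not particular to the ETS core and the RUNX word.

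The members held fewer CpG dinucleotides than the peaks of the list as a whole, and their GC content lay between those of all and of unlabelled peaks. The median GC content of the windows was 56.3%, against 58.3% for the list and 53.7% for its unlabelled peaks, and the median number of CpG was 6 against 11 and 5. In windows 2 kb away from the members the medians were 49.0% GC and 4 CpG. Of the 66 windows at the apex 6, or 9.1%, had 20 or more CpG, against 36.8% of the list. These were the peaks at the canonical starts of GAS7 (23 CpG), CHST11 (35) and ZMIZ1 (44), the labelled peak of ZMIZ1 in intron 7 (21), the labelled peak of IQSEC1 (36) and 1 unlabelled peak of IQSEC1 (33), 107 bp from the start of a transcript without a defined coding sequence. SEPTIN9 had none, although 4 of its peaks carried labels, and its windows held at most 16.

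The 5 genes were chosen for their many peaks, and none of their relatives held as many. Of 26 genes of the same families, 13 held an apex, 7 had a peak labelled with their own symbol, and none held more than 2 apexes. CHST12, CHST13 and CHST15, relatives of CHST11, held 1 each and CHST14 0. ZMIZ2 held 1, IQSEC2 2 and IQSEC3 0. Of 12 other septins, SEPTIN1, SEPTIN2 and SEPTIN6 held 1 each. Among 7 F-BAR proteins, PACSIN2 held 2, PACSIN1, FNBP1, FES and FER 1 each, and PACSIN3 and TRIP10 0. Most of these genes are shorter than the 5 members, from 2175 bp for CHST14 to 449001 bp for FER, and per 100 kb FES (8.28), SEPTIN1 (5.6) and CHST13 (5.23), each with 1 apex, reached values near or above those of the members.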

How the data were processed

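The authors used Trimmomatic for trimming, Bowtie2 for alignment to hg19, SAMtools for removal of duplicates and Bedtools for that of blacklisted regions, and called peaks with SEACR (norm union) against the paired control. Peaks reproducible across 2 replicates at an IDR under 0.05 were kept, so weaker sites are missing. Tool versions are not given in the sources used here. The deposited list holds a total signal and a score per peak, the latter being the largest signal within it (peak height), as judged from the values. Whether this signal is of 1 replicate or of pooled reads is not stated, nor is its normalization. Gene symbols were assigned by the authors.

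Peaks overlapping the 5 intervals by any base were taken. Apexes were placed with GENCODE 44 mapped to GRCh37, and sequence was read from GRCh37, the build of hg19, in which 0 peaks passed a chromosome end. Python 3.11.15, pandas 2.3.3 and scipy 1.17.1 were used, and the motif search was tested on simulated sequence. Genes and lists were chosen with earlier results of these data known. Named genes were the members, genes whose symbols lay in the intervals, relatives, and the long genes with most peaks by number or per 100 kb, of which 1 is not reported here. The other 6 libraries were not analysed here. Alternatives concerned overlap, threshold, merging, label definition and window.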

Additional observations from a re-analysis of the deposited data

How the results depend on the processing

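Over the 5 genes together, 24 of 26 alternatives kept the value within 1.5 times of that reported or, for shares, within its 95% interval, and 2 moved it. For single genes, 45 of 61 alternatives kept the value and 16 moved it. The 61 include the spacing over the whole gene of IQSEC1, chosen after the values were seen. The median height of the list, a threshold that shortens the list by construction, was reached by 33 of the 66 peaks and 7816 of the 15412 listed. The 33 were 7 in GAS7, 6 in CHST11, 8 in ZMIZ1, 5 in IQSEC1 and 7 in SEPTIN9. The median spacing was then 20009 bp in place of 9835 bp, with 18587 bp in GAS7, 34324 bp in CHST11, 24024 bp in ZMIZ1, 4267.5 bp in IQSEC1 and 18391.5 bp in SEPTIN9. With neighbours under 1 kb apart merged there were 61 peaks, and spacing moved to 8895.5 bp in GAS7 and 9835 bp in IQSEC1. Without labelled peaks in the genes and the list, the median width as a ratio to the list was 1.24 in place of 1.04 over the 5 genes. In IQSEC1 it was 1.48 in place of 0.93. By an annotated start of any gene within 1 kb in place of the label, the share was 25.8% in the 5 genes, 7.1% in ZMIZ1 and 66.7% in SEPTIN9. It was 54.9% in the list. Annotated start sites of the gene itself numbered 17 in GAS7, 6 in CHST11, 3 in ZMIZ1, 10 in IQSEC1 and 46 in SEPTIN9. At or above the median height the label share was 24.2% in the 5 genes and 0.0% in IQSEC1, against 51.7% in the list. In windows at the middle of the peak the ETS core was in 45.5% and the RUNX word in 36.4%. In such windows of the list the shares were 32.3% and 22.7%, and in those of its unlabelled peaks 38.1% and 32.9%. No paired analysis was possible because both replicates share 1 set of values, which also left no replicate to omit. Depth is unknown, so a site absent from the list cannot be called unbound.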
